A study of Mus musculus with 12 samples.

Results

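The comparison described here is the effect of an siRNA against lincRNA-Tnfaip3 on gene expression in RAW264.7 cells that had been exposed to LPS. RAW264.7 is an established mouse macrophage line, and LPS is the outer membrane lipid of Gram-negative bacteria. The arrays were chosen by their titles: 3 arrays of cells given the siRNA against lincRNA-Tnfaip3 and then LPS, set against 3 arrays of cells given a control siRNA and then LPS, 6 of the 12 arrays of the series. In both groups the siRNA was present for 24 h before E. coli LPS at 1 µg/ml was added for 4 h. The control was a nonspecific scrambled siRNA, and the remaining 6 arrays held the same siRNAs without LPS, 3 each. All cells were of 1 line, and the sequences of both siRNAs are not given in the sources used here. Whether replicates came from separate cultures is not said in the labels. The p-values therefore reflect the spread among arrays only, and that spread may be technical. Each SE and p-value comes from a fit to all 12 arrays, so it also carries the spread of the arrays without LPS.

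Macrophages sense LPS through the receptor TLR4 with its partners CD14 and MD-2, and the adaptors MyD88 and TRIF pass the signal to the IKK complex and to interferon regulatory factors. IKK releases NF-kB, which switches on cytokine and chemokine genes and, with them, its own inhibitors, among them Nfkbia (IkB alpha) and Tnfaip3 (the ubiquitin-editing enzyme A20). LincRNA-Tnfaip3 is a long intergenic noncoding RNA transcribed near Tnfaip3 that has been described as a partner of NF-kB and of the DNA-binding protein HMGB1 in mouse macrophages. The comparison asks which transcripts of LPS-stimulated cells differ between the siRNA against this lincRNA and the control siRNA. Whether they depend on the lincRNA itself was not tested.

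Each of the 6 arrays had 33007 to 36391 probes well above background. Levels below are log2 of the processed spot signal minus the 75th percentile of the same array, so that 0 is the 75th percentile, and differences are lincRNA siRNA minus control siRNA on that log2 scale. The 3 control arrays and lincRNA siRNA array 1 shared slide 2, and lincRNA siRNA arrays 2 and 3 were alone on slide 3. The only comparison within 1 slide is therefore that of lincRNA siRNA array 1 with the 3 controls, and it is called the same-slide difference. Control array 1 stood apart for genes that respond to LPS. Over 472 features at least 2-fold higher with LPS on the average of both siRNAs, it lay a median of 0.425 log2 units away from the mean of the other control arrays, against 0.169 to 0.253 for each of the other 5 arrays. Differences of named genes that moved by over 1.5 times without it, and reached 0.2 in size with or without it, are therefore given both ways, as are the list medians it moved most.

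The silencing itself could not be read from the arrays. No probe was named for lincRNA-Tnfaip3 (0 of 55681), and of the 8 probes within 500 kb of the Tnfaip3 probe (mm9 chr10:18720776-18720835) 0 were annotated as lincRNA. Tnfaip3, the protein-coding neighbour, read 4.59, 4.17 and 4.12 on the control arrays and 4.03, 3.92 and 3.69 on the lincRNA siRNA arrays. The groups did not overlap, and the lower end of the control range lay just above the highest lincRNA siRNA array. The difference was -0.41 (SE 0.20, adjusted p = 0.977), the same-slide difference was -0.26, and without control array 1 it was also -0.26.

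Across the whole array few features lay far apart between the siRNAs in LPS-stimulated cells, and none passed the test. Of 23831 features tested, 0 (0%) passed an adjusted p of 0.05 in limma's moderated test, and the lowest adjusted p was 0.182. At an unadjusted p under 0.05 there were 1112 features (4.67%), of which 669 (2.81%) were higher and 443 (1.86%) lower in the lincRNA siRNA group. This split moves with the scaling: under quantile normalization 533 were higher and 537 lower. The difference was under 0.5 log2 units for 89.9% of features, and 491 features lay at least 2-fold apart. The median 95% interval reached 0.42 log2 units to either side of the estimate, so that many differences of moderate size could not be told from 0 with 3 arrays per group.

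Because no feature passed the threshold, the genes below are described by their values and by whether the 3 arrays of one group lay wholly above or below the 3 of the other. The background for that reading is broad. Of all features, 7.37% had every lincRNA siRNA array above every control array, and 3.89% had every one below. At an unadjusted p under 0.05, 2.81% of all features were higher and 1.86% lower. These shares are the background for every list count below. The adjusted p was between 0.182 and 0.998 for every gene named here. Genes named from the lists for a low unadjusted p or for groups free of overlap were picked after their values were seen.

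**Figure D1:**
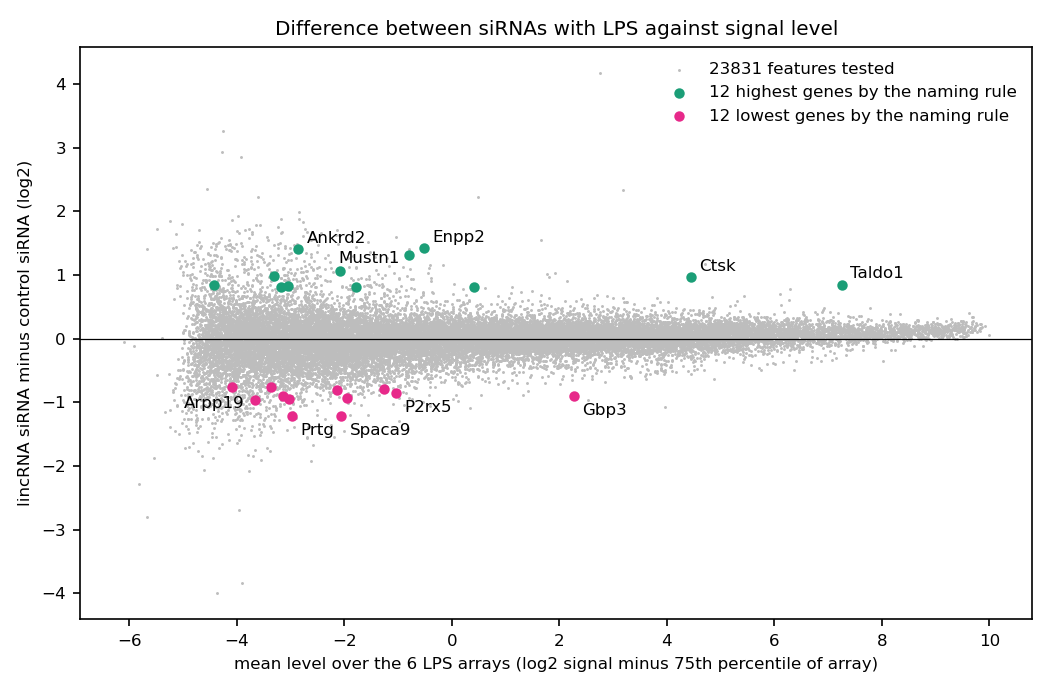
Each grey point is 1 of 23831 features, with its mean level over the 6 LPS arrays on the x axis (log2 signal minus the array's 75th percentile) and the difference lincRNA siRNA minus control siRNA on the y axis (log2). Green and pink points are the 12 highest and 12 lowest genes with unadjusted p under 0.05 and no overlap between groups, and the spread of the points narrows as signal rises, so that Taldo1 at 0.85 stands clear of its neighbours while dim genes of similar difference do not. The cloud also lifts slightly above 0 at the brightest levels, to a median of 0.13 from 8 to 10.

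The list with the highest median difference was that of the targets of NRF2, the transcription factor encoded by Nfe2l2 that induces glutathione, thioredoxin and pentose phosphate enzymes under oxidative or electrophilic stress. NRF2 is held down by KEAP1 in resting cells and, once released, binds antioxidant response elements with small MAF proteins. Of 19 genes in the list 18 were measured. All 18 had a difference above 0, as did 12900 of the 23831 features tested. At an unadjusted p under 0.05, 8 were higher (44.4%) and 0 lower, against 2.81% and 1.86% of all features. In 11 (61.1%) every lincRNA siRNA array was above every control array, against 7.37% of all features. The median difference was 0.305, against 0.0213 over all features, and none of the other lists among the 36 had a higher one. The lists were chosen with earlier results of these data known, so this rank is a description and not a test.

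Taldo1 encodes transaldolase, an enzyme of the pentose phosphate pathway. It read 6.76, 6.76 and 6.98 on the control arrays and 7.60, 7.80 and 7.63 on the lincRNA siRNA arrays. The gap between the groups was wider than the range within either group. The difference was 0.85 (SE 0.11, unadjusted p = 1.4e-05, adjusted p = 0.182), which is 1.80-fold, and Taldo1 had the lowest p of all features. The same-slide difference was 0.77 and the difference without control array 1 was 0.81. With an intensity trend and robust prior in the variance model its adjusted p became 0.0462.

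Srxn1 encodes sulfiredoxin, which restores overoxidised peroxiredoxins. Its levels were 4.48, 4.37 and 4.68 with control siRNA and 5.36, 5.12 and 5.02 with lincRNA siRNA. Again no array of one group reached the other, and array 1, on the slide of the controls, was the highest. The difference was 0.66 (SE 0.13, unadjusted p = 0.000461, adjusted p = 0.556).

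Sqstm1, the autophagy receptor p62 that also competes for KEAP1, read 4.04, 4.18 and 4.02 against 4.37, 4.59 and 4.51. Gclm, the modifier subunit of the enzyme that limits glutathione synthesis, read 0.75, 1.00 and 0.77 against 1.22, 1.18 and 1.45. Neither gene had overlapping groups. Their differences were 0.41 (SE 0.09) for Sqstm1 and 0.44 (SE 0.13) for Gclm.

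Another 3 members of the list had smaller differences than these and were also free of overlap. Txnrd1, thioredoxin reductase 1, read 5.54, 5.48 and 5.55 against 5.93, 5.71 and 5.88, a difference of 0.31. Prdx1, a peroxiredoxin that removes hydrogen peroxide, read 6.76, 6.86 and 6.85 against 7.07, 7.13 and 7.08, a difference of 0.27. G6pdx, the first enzyme of the pentose phosphate pathway, read 6.23, 6.35 and 6.18 against 6.45, 6.44 and 6.76, a difference of 0.30. All 3 had an unadjusted p between 0.0139 and 0.035.

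Nqo1, a quinone reductase often used to read NRF2 activity, was dim. It was well above background on 0 of 3 control arrays and on all 3 lincRNA siRNA arrays, at -4.85, -4.97 and -6.58 against -3.87, -4.07 and -3.92. Each control array was given the higher of its own value and the dimmest signal of any probe well above background there. The signal with lincRNA siRNA was then 2.26-fold higher. The level of Nqo1 with control siRNA was not measured, so this ratio is no firm bound. A gene can pass the filter on dim probes through the group where it is bright. The 17 members well above background on all 6 arrays were therefore also counted apart. Of these, 7 were higher at an unadjusted p under 0.05 and 10 had every lincRNA siRNA array above every control, with a median difference of 0.298. The shares over all features, dim ones included, were 2.81% and 7.37%. Gsta3, Slc7a11 and Gsr, for a glutathione transferase, the cystine importer and glutathione reductase, also had groups without overlap, at differences of 0.64, 0.40 and 0.20.

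Not every member was set apart. Hmox1, heme oxygenase 1, read 5.08, 5.71 and 5.76 on the control arrays and 4.52, 6.43 and 6.56 on the lincRNA siRNA arrays. Its difference was 0.32 (SE 0.84), or 0.10 without control array 1. Its lowest and its highest arrays were both in the lincRNA siRNA group, and the low one was array 1, on slide 2. Gstm1 had the smallest difference of the list, 0.01 (SE 0.16). Nfe2l2 itself differed by 0.25 (SE 0.13) with overlapping groups.

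The shift of the list was seen on each array of the lincRNA siRNA group: the median over its 18 members relative to the control mean was 0.284 on array 1, 0.342 on array 2 and 0.384 on array 3. It was 0.26 without control array 1, and 0.224 under quantile normalization. The count of members with an unadjusted p under 0.05 was 4 within slide 2 and 6 without control array 1. Lists of abundant transcripts also lay above 0, the housekeeping genes at 0.143 and the ribosomal protein genes at 0.126. Over all features the difference was larger at higher signal levels, from a median of -0.0653 for the 2029 with a mean level between -6 and -4 to 0.13 for the 516 between 8 and 10. Set against the median of features within the same step of 2 log2 units of level, 17 of the 18 NRF2 targets lay above it, by a median of 0.237. The differences without LPS come from the other 6 arrays, which shared the probe filter and the estimate of spread with those above. In them the same list had a median of 0.302. Of 18 members 8 were higher and 0 lower at an unadjusted p under 0.05, against 12.3% and 5.98% of all features. Taldo1 differed without LPS by 0.77, Srxn1 by 0.74 and Gclm by 0.44. Of the 3 control arrays without LPS 2 were on slide 1, where no lincRNA siRNA array was.

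**Figure D2:**
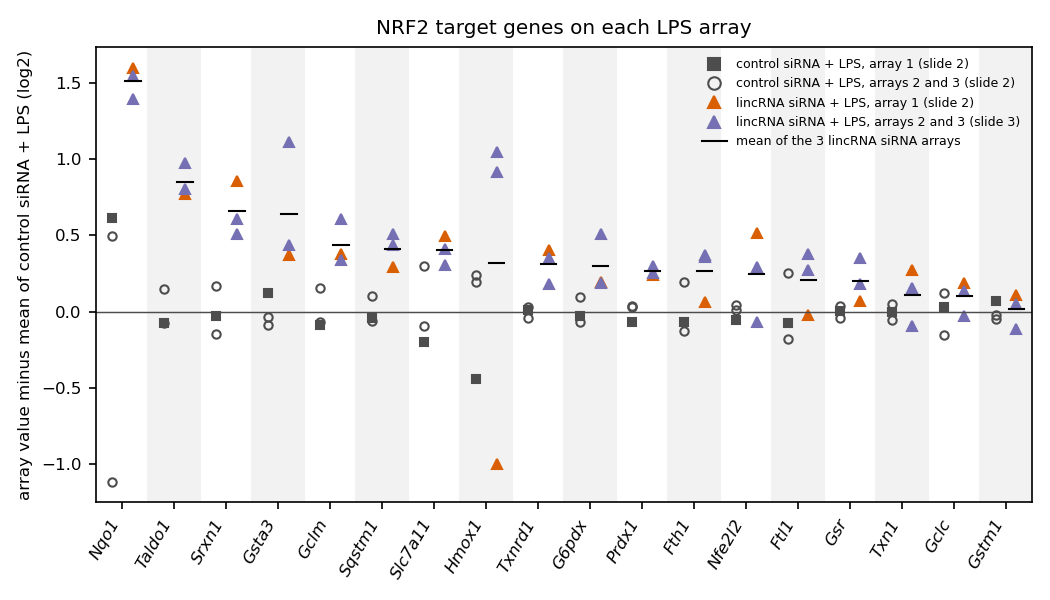
For the 18 measured NRF2 targets the y axis gives each LPS array's level minus the mean of the 3 control siRNA arrays (log2), with squares and circles for control arrays, triangles for lincRNA siRNA arrays coloured by slide, and a bar at the mean of the 3 lincRNA siRNA arrays. The triangles of Taldo1, Srxn1, Gclm and Sqstm1 all lie above every control point, those of Hmox1 fall on both sides of 0, and the control points of Nqo1 were not well above background.

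The antioxidant response element to which NRF2 binds has the core TGACNNNGC. That core was searched on both strands in the 250 bases upstream of each RefSeq gene start (GRCm38.p6), and 15 of the 18 measured members had such a window. At least 1 match stood in 6 of these 15 genes, against 13.5% of the 11816 tested genes with a window. The list was made of NRF2 targets, so this share describes the list and is no result of the siRNA. The windows of the members with a match are shown to let the shared core be seen, on the gene's strand, 5′ to 3′, with the match in capitals. In all but Gsta3 and Nfe2l2 the core is on the opposite strand and so reads GCNNNGTCA.
Gclm (chr3:122245407-122245447): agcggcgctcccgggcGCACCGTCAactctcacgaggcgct
Prdx1 (chr4:116685450-116685490): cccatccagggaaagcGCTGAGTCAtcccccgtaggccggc
Txnrd1 (chr10:82859098-82859138): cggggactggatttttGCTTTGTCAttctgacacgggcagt
G6pdx (chrX:74428913-74428953): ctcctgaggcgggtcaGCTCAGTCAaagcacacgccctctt
Gsta3 (chr1:21240448-21240488): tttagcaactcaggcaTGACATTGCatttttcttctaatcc
Nfe2l2 (chr2:75704879-75704913): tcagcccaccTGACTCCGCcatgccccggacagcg
Gclm, Prdx1, Txnrd1 and G6pdx are among the 8 members with an unadjusted p under 0.05. No match was found for Taldo1, Sqstm1, Srxn1 or Nqo1, which are also among them. A gene without a window could show none. A match is a description of letters only, and binding was not measured.

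At the head of the LPS pathway most genes had overlapping groups. In the list of receptor and proximal signalling genes 25 of 26 were measured, 1 was higher and 1 lower at an unadjusted p under 0.05, and the median difference was -0.0476, or 0.0353 without control array 1. Tlr4 differed by 0.02 (SE 0.12), Myd88 by -0.02 (SE 0.14) and Irak3, a brake on the receptor's kinases, by 0.02 (SE 0.09). The widest 95% interval of the 3 was that of Myd88, from -0.34 to 0.30, which leaves room for small differences either way.

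Cd14, the LPS co-receptor, read 7.11, 7.63 and 7.84 on the control arrays and 8.0, 7.86 and 8.18 on the lincRNA siRNA arrays. The groups did not overlap, but the lowest value was control array 1, and without it the difference went from 0.49 (SE 0.25) to 0.28. Rnf41, a ubiquitin ligase of TLR signalling, read 1.79, 1.71 and 1.63 against 2.08, 2.00 and 2.41, a difference of 0.45 (SE 0.14). Ticam2, the bridging adaptor between TLR4 and TRIF and the list's 1 lower gene, read -3.55, -4.34 and -3.17 against -4.66, -5.31 and -4.57. It was well above background on all 3 control arrays but on 2 of 3 lincRNA siRNA arrays, so its level with lincRNA siRNA was not fully measured and no size of difference is drawn from it.

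The IKK list held 10 measured genes with a median of 0.0586 (0.118 without control array 1). At an unadjusted p under 0.05, 2 of them were higher (20%, against 2.81% of all features). Ikbkg encodes NEMO, the regulatory subunit of the IKK complex, and read 0.18, 0.28 and 0.36 against 0.60, 0.63 and 0.79. Each lincRNA siRNA array was above each control, and the difference was 0.40 (SE 0.10, unadjusted p = 0.00297). Ripk1, the kinase that scaffolds IKK at the TNF receptor, differed by 0.28 (SE 0.11).

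The 5 NF-kB subunit genes gave no separation. Their median difference was -0.169, or 0.0175 without control array 1, and 0 of 5 had an unadjusted p under 0.05 or groups without overlap. Rela read 5.87, 5.83 and 5.79 against 5.96, 5.86 and 5.62. Rel, the subunit with the widest spread, read -2.59, -2.82 and -2.65 against -2.37, -3.42 and -3.26. On array 1, which shared the controls' slide, the list median was 0.0606, on the other side of 0 from arrays 2 and 3 at -0.224 and -0.204.

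Among the inhibitors and feedback genes of NF-kB all 22 were measured, with a median of -0.167. At an unadjusted p under 0.05 there were 0 higher and 1 lower (4.55%, against 1.86% of all features), Tnfaip8, at -0.28 (SE 0.11). Groups free of overlap were found for 4 genes (18.2%), all lower, against 3.89% of all features. They were Tnfaip3, Tnfaip8, Bcl3 and Zfp36, the last encoding a protein that destabilises cytokine mRNA. Nfkbia differed by -0.17 (SE 0.13) and Nfkbiz by 0.01 (SE 0.12), both with overlap. The list's median was below 0 in all 26 alternative analyses, between -0.219 and -0.0147. The value nearest 0 was that without control array 1, on which Nfkbia, Tnfaip3 and Tnfaip8 had their highest levels.

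The HMGB genes, partners of the lincRNA in earlier descriptions, had overlapping groups. Hmgb1 differed by -0.08 (SE 0.21) on the probe used, while of 6 other Hmgb1 probes 1 differed by -0.11 and 5 by 0.07 to 0.29. Hmgb2 read 7.20, 7.14 and 7.14 against 7.06, 7.26 and 7.13, a difference of -0.01 (SE 0.11).

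Of 26 cytokine genes 21 were measured and 5, among them Il12a, Il12b and Il23a, were not. The median difference of the 21 was -0.159. At an unadjusted p under 0.05, 0 were higher and 3 lower (14.3%), against 2.81% and 1.86% of all features. In 4 (19%) all lincRNA siRNA arrays were below all controls, against 3.89% of all features. Csf1, the growth factor of macrophages, read 0.84, 1.00 and 0.81 against 0.47, 0.19 and 0.10. Il1b, the inflammasome-processed cytokine, read 5.10, 4.52 and 4.59 against 4.47, 4.12 and 3.94. In both genes the lincRNA siRNA array nearest to the controls was array 1, on their slide, with same-slide differences of -0.41 and -0.27.

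Ebi3, a subunit of the cytokines IL-27 and IL-35, read 6.50, 6.41 and 6.29 against 6.19, 6.01 and 6.22. Il15 had groups free of overlap at -3.46, -3.56 and -3.06 against -3.69, -3.94 and -3.88, with an SE of 0.60 for a difference of -0.47. In the other 17 cytokines, among them strongly LPS-induced ones, the groups overlapped. Il6 read 3.24, 3.59 and 3.56 against 3.60, 3.34 and 2.79, a difference of -0.22 that was -0.33 without control array 1. Tnf differed by -0.03 (SE 0.10), Il1a by -0.17 (SE 0.23) and Il10 by 0.01 (SE 0.13).

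Csf2, the gene of GM-CSF, showed how far control array 1 could set a difference. It read -0.39, 0.77 and 0.77 with control siRNA and 0.32, 0.30 and 0.05 with lincRNA siRNA. The difference was -0.16 with all arrays and -0.55 without control array 1. Csf3 and Ifnb1 had the same low first control array, at 2.37 beside 3.31 and 3.05 for Csf3 and 0.36 beside 1.12 and 1.16 for Ifnb1. The difference of Csf3 was 0.29 with all arrays and 0.02 without control array 1.

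Of 21 chemokine genes 15 were measured, 0 had an unadjusted p under 0.05 and the median difference was 0.00 to 2 decimals. Ccl5 read 7.30, 6.92 and 6.99 against 6.88, 6.91 and 6.65, lower without overlap by a narrow gap, and its difference of -0.26 became -0.14 without control array 1. Cxcl16 read 2.80, 1.53 and 1.61 against 1.42, 1.34 and 1.39, and its difference of -0.60 became -0.19 without control array 1. Ccl2 read 4.83, 6.46 and 6.35 against 6.18, 5.94 and 5.83, so that leaving out the same array turned its difference from 0.10 to -0.42. Cxcl10 differed by -0.02 (SE 0.24), and Cxcl2 by 0.41 (SE 0.35), or by 0.26 without that array.

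**Figure D3:**
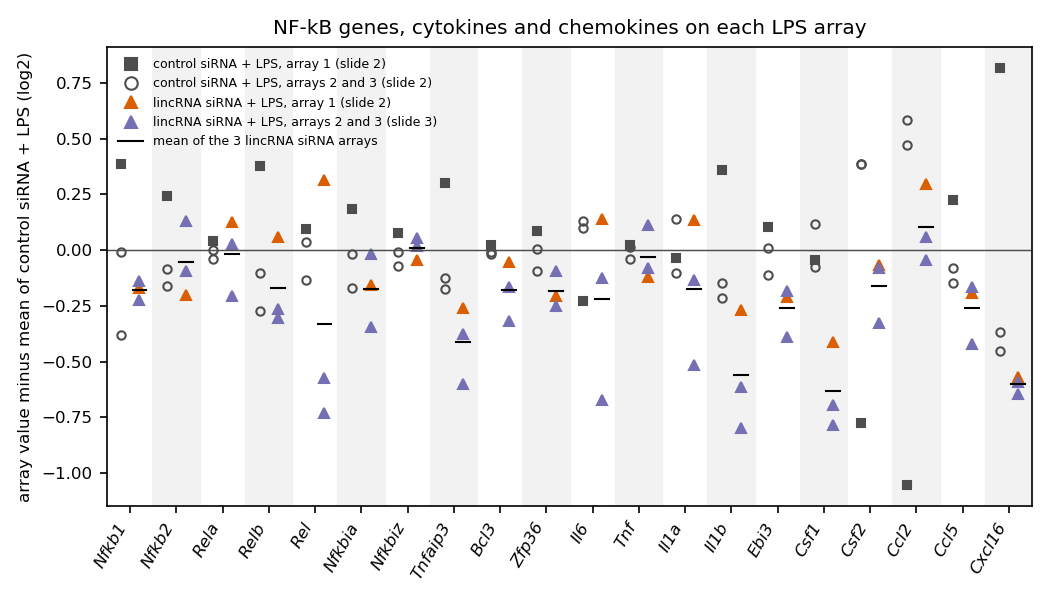
Levels of 20 NF-kB, cytokine and chemokine genes on each LPS array are plotted as the difference from the mean of the 3 control siRNA arrays (log2), with control array 1 as a filled square. That square lies far from the other control points for Ccl2, Csf2 and Cxcl16, while for Csf1 and Tnfaip3 all 3 triangles of the lincRNA siRNA group lie below every control point.

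Interferon signalling genes showed small differences, most of them with overlap. Of 20 measured interferon and regulatory factor genes, 0 were higher and 2 lower at an unadjusted p under 0.05. Ifnar1, a subunit of the type I interferon receptor, read 0.86, 0.74 and 0.77 against 0.69, 0.49 and 0.34. Its groups were free of overlap, with a difference of -0.28 (SE 0.11).

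The 44 measured antiviral genes induced by interferon had a median difference of 0.0297, with 0 at an unadjusted p under 0.05. Without overlap 1 was higher (2.27%) and 2 lower (4.55%), against 7.37% and 3.89% of all features. The 2 lower genes were Isg20, an RNA exonuclease, at 4.48, 4.49 and 4.58 against 4.22, 4.17 and 3.90, and Herc6, an ISG15 ligase, at -0.39 (SE 0.24). Mx1, a GTPase that blocks viral nucleocapsids, read -0.56, 1.91 and 1.90 against 1.81, 1.48 and 0.86. Here too control array 1 stood apart from the other 5, and the difference of 0.30 became -0.52 without it. Trim30a had the same form, with a difference of 0.46 that became -0.24. The list median was -0.144 without control array 1.

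Guanylate-binding proteins and immunity-related GTPases attack the membranes around intracellular pathogens. Of 15 measured genes 11 had a difference below 0, as did 10931 of the 23831 features tested. At an unadjusted p under 0.05, 0 were higher and 2 lower (13.3%, against 1.86% of all features). Without overlap 3 were lower (20%, against 3.89%). Gbp3 read 3.00, 2.54 and 2.61 against 1.98, 1.96 and 1.51, with a same-slide difference of -0.74 beside -0.90 for all arrays. Gbp7 read 0.52, 0.48 and 0.56 against 0.24, -0.12 and 0.14, and Gbp2 differed by -0.57 (SE 0.58). The list median was -0.17 overall but 0.0236 on array 1, on the controls' slide, and -0.354 on array 3, and it was -0.326 without control array 1.

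Immediate-early genes and feedback phosphatases of the MAP kinases had 4 of 28 measured members (14.3%) higher and 0 lower at an unadjusted p under 0.05. The shares over all features were 2.81% and 1.86%. Maff, one of the small MAF proteins that pair with NRF2 and other factors, read 1.01, 1.17 and 1.16 against 1.71, 1.44 and 1.57. Dusp16, a phosphatase of JNK and p38, read 1.65, 1.88 and 1.87 against 2.38, 2.10 and 2.27. Neither gene had an array in the range of the other group, and the differences were 0.46 (SE 0.10, unadjusted p = 0.000795) and 0.45 (SE 0.13). Fosl1 and Junb, subunits of AP-1, differed by 0.39 and 0.33, Junb with overlap, and the list's median was 0.0408.

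Among suppressors of cytokine signalling Socs3 was the only one of 12 with an unadjusted p under 0.05, at 6.82, 6.57 and 6.45 against 6.13, 6.25 and 5.99. Its same-slide difference of -0.48 was close to the -0.49 of all arrays. Cish read 0.02, 1.86 and 1.77 against 1.30, 1.38 and 0.87, with control array 1 as the lowest of the 6, and its difference of -0.03 became -0.63 without that array. Socs1 differed by -0.12 (SE 0.32), or -0.37 without it.

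Effector genes of inflammation split. Nos2, which makes nitric oxide, and Ptgs2, which makes prostaglandin precursors, differed by 0.07 (SE 0.24) and -0.19 (SE 0.18) with overlap. Slpi, an inhibitor of neutrophil proteases induced by LPS in macrophages, read 4.71, 5.27 and 5.33 against 5.89, 5.86 and 5.60, a difference of 0.68 (SE 0.24). Of 23 measured effectors 2 were higher at an unadjusted p under 0.05, Slpi and the elastase Mmp12, and 0 were lower.

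Of 26 measured genes of antigen presentation and costimulation 0 were higher and 2 lower at an unadjusted p under 0.05. Icosl, the ligand of the T cell receptor ICOS, read -0.08, -0.76 and -0.46 against -1.02, -1.30 and -0.98. Cd40, a costimulatory receptor, read 2.37, 2.16 and 2.06 against 2.02, 1.77 and 1.40. Both were free of overlap and both are LPS-responsive, at 2.13 and 2.99 log2 units above unstimulated cells with control siRNA. The class I genes H2-D1 and H2-T23 were on the other side, at 0.27 and 0.24, with adjusted p-values as high as the rest.

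The machinery of RNA sensing and RNA interference, through which an siRNA acts, had 17 measured genes with a median of -0.0887, 0 higher and 1 lower at an unadjusted p under 0.05. Tnrc6a encodes GW182, the partner of Argonaute proteins in silencing, and read 1.77, 1.74 and 1.60 against 1.30, 1.34 and 1.1. The lincRNA siRNA arrays lay wholly below the controls, and the difference was -0.46 (SE 0.13). Among 28 inflammasome and cell death genes 1 was higher, the BH3-only killer Bcl2l11 (BIM) at 0.32 (SE 0.12), and 2 were lower, the flagellin inflammasome gene Nlrc4 at -0.51 (SE 0.18) and the survival gene Bcl2a1d at -0.35, which was -0.21 without control array 1.

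The lists of cell growth and death control showed few members apart. Of 37 cell cycle genes 1 was higher at an unadjusted p under 0.05, the replication helicase subunit Mcm3 at 0.31, and the median was 0.0508. Of 18 targets of p53, the DNA damage transcription factor, 1 was higher and 1 lower. The lower one was Trp53inp1, a stress protein of autophagy and cell death, at -0.43, -0.43 and -0.82 against -1.04, -1.17 and -1.05. Its groups were free of overlap, with a difference of -0.53 (SE 0.13, unadjusted p = 0.00272).

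Stress and metabolic lists lay between these groups. The unfolded protein response list had a median of 0.198, with 5 of 22 members higher without overlap. Among them were Sdf2l1, Creld2 and the chaperone Hspa5 (BiP). The heat shock list had a median of 0.197, with 3 of 9 higher without overlap. These shares of 22.7% and 33.3% stood beside 7.37% of all features. In both lists 0 members were higher at an unadjusted p under 0.05, and Edem1, which sends misfolded glycoproteins to degradation, had a difference of -0.51 (SE 0.20), with overlap. Without control array 1 the difference of Edem1 was -0.31, that of Creld2 went from 0.37 to 0.15 and that of Hspa5 from 0.27 to 0.14, and the unfolded protein median was 0.119. The list of respiratory chain genes had a median of 0.0389. Tfrc, the transferrin receptor, read 3.80, 3.91 and 3.82 against 4.25, 4.25 and 4.24, the highest of the housekeeping list. Adm, the peptide adrenomedullin of the glycolysis and hypoxia list, read 2.08, 2.00 and 2.16 against 1.43, 1.41 and 1.65.

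**Figure D4:**
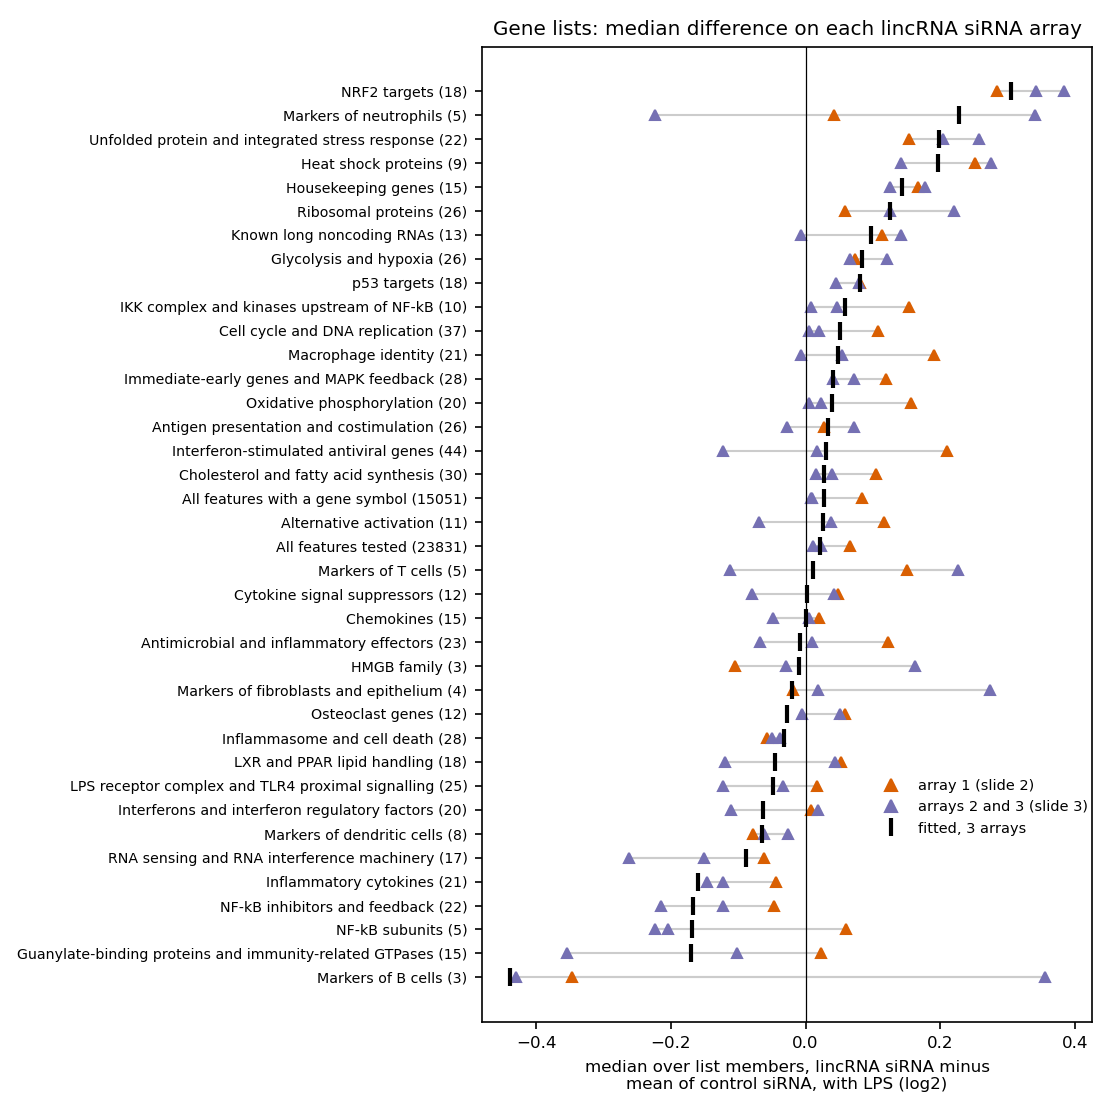
For each gene list (measured members in brackets) triangles give the median over members of 1 lincRNA siRNA array minus the mean of the control arrays with LPS (log2, x axis), coloured by slide, and the bar gives the median of the fitted differences. NRF2 targets lie to the right on all 3 arrays (0.284, 0.342 and 0.384), and the cytokine and NF-kB feedback lists lie left of 0 on all 3, whereas the NF-kB subunits and the guanylate-binding proteins lie on both sides.

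Counts at an unadjusted p under 0.05 also moved without control array 1. The immediate-early list then had 2 higher, the osteoclast list 1 and the IKK list 1. Lower genes numbered 2 among cytokines, 1 among guanylate-binding proteins, 1 among interferon and regulatory factor genes, and 0 among NF-kB feedback genes, cytokine signal suppressors and inflammasome and cell death genes.

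Macrophage identity genes were abundant under both siRNAs. All 21 measured identity genes were well above background on all 6 arrays, and their summed signal was 1390 to 1490 times the 75th percentile on the control arrays and 1520 to 1690 on the lincRNA siRNA arrays. Lyz2, lysozyme M, read 5.59, 5.93 and 6.19 against 6.62, 6.57 and 6.88, a difference of 0.79 (SE 0.21, unadjusted p = 0.0034). The group was free of overlap and the same-slide difference was 0.72. In the osteoclast list 3 of 12 genes (25%, against 2.81% of all features) were higher at an unadjusted p under 0.05, Ctsk, Acp5 and Clcn7. The list median was -0.0268. Ctsk, the collagen-degrading cathepsin K, read 2.90, 4.47 and 4.54 against 5.11, 4.90 and 4.81, and its difference of 0.97 became 0.43 without control array 1.

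Markers of other cell types were measured beside these, and their part in the differences was not tested. Of 6 B cell markers 2, of 7 T cell markers 5, of 7 neutrophil markers 4 and of 11 fibroblast and epithelial markers 4 were well above background on all 6 arrays. Of 9 dendritic cell markers 6 were, with summed signals of 175 to 202 on control and 167 to 186 on lincRNA siRNA arrays. The summed signals of the other types on control and lincRNA siRNA arrays were 0.65 to 0.819 and 0.574 to 0.639 for B cells, 13.7 to 19.3 and 15.2 to 19.5 for T cells, 2.23 to 3.78 and 3.07 to 3.57 for neutrophils, and 1.15 to 2.82 and 1.69 to 2.13 for the last. Ms4a1, Cd3g, Xcr1, Ngp, Pdgfra, Epcam, Cdh1 and Krt18 were never well above background. In RNA from a whole culture, fewer cells of a type and less RNA per cell cannot be told apart.

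Over all genes with a symbol, members of the lists included, 631 had an unadjusted p under 0.05, no overlap and signal well above background on all 6 arrays, 426 of them higher and 205 lower. The 12 furthest in each direction by that rule are mostly dim. Enpp2 encodes autotaxin, which makes lysophosphatidic acid, and read -1.79, -0.90 and -1.01 against 0.33, -0.03 and 0.29. The lowest array was control array 1 and the gap to the other controls was still wide, with a difference of 1.43 (SE 0.39) that became 1.15 without it. Cnnm2, a magnesium transport regulator, read -0.18, 0.07 and 0.15 against 0.84, 0.92 and 0.72, a difference of 0.82 (SE 0.14, adjusted p = 0.478) that was 0.83 on the same slide.

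Other genes of this set owed more to a single array. Ankrd2 and Mustn1, known from skeletal muscle, differed by 1.40 and 1.31, and by 0.91 and 0.71 without control array 1. Gys2, the liver glycogen synthase, went from 0.98 to 0.56. Slc40a1, ferroportin, which exports iron from macrophages, read -2.64, -1.79 and -2.12 against -1.27, -1.41 and -1.44, a difference of 0.81 that became 0.58.

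On the lower side Prtg, a neural cell surface protein, read -2.07, -2.28 and -2.75 against -3.66, -3.47 and -3.62, a difference of -1.22 (SE 0.22, adjusted p = 0.478). Spaca9 read -1.0, -1.67 and -1.68 against -2.40, -2.67 and -2.90. Hacd4, a dehydratase of very long chain fatty acid synthesis, read -1.48, -1.86 and -1.84 against -2.54, -2.48 and -2.60. In all 3 the groups lay clearly apart and the differences without LPS were on the same side, at -0.87, -1.20 and -0.91.

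Wnt10a is a secreted Wnt ligand that was 3.72 log2 units higher with LPS than without it in control siRNA cells. It read -1.34, -1.54 and -1.56 against -2.60, -2.19 and -2.47 in LPS-treated cells, a difference of -0.94 (SE 0.24). P2rx5, an ATP-gated channel, read 0.30, -1.09 and -1.03 against -1.46, -1.37 and -1.56, and its difference of -0.86 became -0.40 without control array 1. Htra1, a secreted serine protease, differed by -0.95 (SE 0.22) and was free of overlap.

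LincRNA regions, for which the array carries probes designed on mm9, numbered 3535 among the tested features. Of these 50 were higher and 46 lower at an unadjusted p under 0.05, with a median difference of 0.00 to 2 decimals. The 3 highest and 3 lowest regions with an unadjusted p under 0.05 and no overlap are shown by their probes, 60 bases each in the sense of the transcript, because no other name identifies them. No gene annotation of mm9 was used here, so the neighbours of the regions are not given.
Region chr11:53592946-53637922, minus strand: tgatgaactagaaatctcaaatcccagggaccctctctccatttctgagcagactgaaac
Region chr8:41735904-41745741, plus strand: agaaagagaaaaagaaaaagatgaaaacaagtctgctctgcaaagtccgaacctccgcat
Region chr14:47978277-47985238, plus strand: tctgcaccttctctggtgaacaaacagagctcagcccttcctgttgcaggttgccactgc
Region chrX:11690182-11690581, minus strand: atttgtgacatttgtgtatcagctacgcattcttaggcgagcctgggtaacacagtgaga
Region chr15:62164419-62165018, plus strand: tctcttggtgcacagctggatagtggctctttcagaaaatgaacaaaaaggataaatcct
Region chr12:88216447-88224965, minus strand: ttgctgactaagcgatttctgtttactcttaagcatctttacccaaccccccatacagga

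The region on chromosome 12 had the lowest p among lincRNA regions named here. It read -2.37, -2.74 and -2.44 with control siRNA and -3.38, -3.20 and -3.21 with lincRNA siRNA, a difference of -0.75 (SE 0.12, unadjusted p = 0.000146, adjusted p = 0.478). Its other probe differed by only -0.04. The region on chromosome X read -2.58, -2.60 and -3.15 against -4.12, -4.07 and -3.68, and its other probe differed by -0.31 beside -1.18. That on chromosome 15 differed by -0.81 (SE 0.35), and its other probe by -1.21. On the probes used all 3 lay wholly below the controls.

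On the higher side the region on chromosome 14 read -1.26, -1.97 and -1.08 against -0.63, -0.92 and -0.75, a difference of 0.68 (SE 0.20). The region on chromosome 8 differed by 0.74 (SE 0.30). The region on chromosome 11 read -4.94, -3.92 and -2.17 against -1.89, -1.86 and -1.77, and the wide spread lay entirely among its controls. Its difference of 1.83 became 1.20 without control array 1, and the region's 3 other probes differed by -0.37, 0.25 and 0.26.

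The effect of the siRNA without LPS compares the other 6 arrays and came from the same fit to all 12. Of 23831 features 0 (0%) passed an adjusted p of 0.05 in limma, 2932 were higher (12.3%) and 1425 lower (5.98%) at an unadjusted p under 0.05, and the lowest adjusted p was 0.0833. That count depends on single arrays, since 2357 features passed without control siRNA array 3, the only one of its group on slide 2. Without that array the controls lay on slide 1 and the lincRNA siRNA arrays on slide 2, so siRNA and slide cannot be told apart. In the test of whether the siRNA effect differs with LPS, 0 features (0%) passed and 900 (3.78%) had an unadjusted p under 0.05, and 316 passed without that array.

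Across the 23831 features the differences with and without LPS had a correlation of 0.321, a description over features that share a cell line and a platform but no array. List medians in both states are given side by side. The antiviral genes had a median difference of 0.887 without LPS, with 17 of 44 higher at an unadjusted p under 0.05, beside 0.0297 with LPS. The guanylate-binding list had 0.761 beside -0.17, and the NRF2 list 0.302 beside 0.305. No member of these lists passed the test of a difference between the states, and without LPS 2 of 3 control arrays were on slide 1, where no lincRNA siRNA array was.

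**Figure D5:**
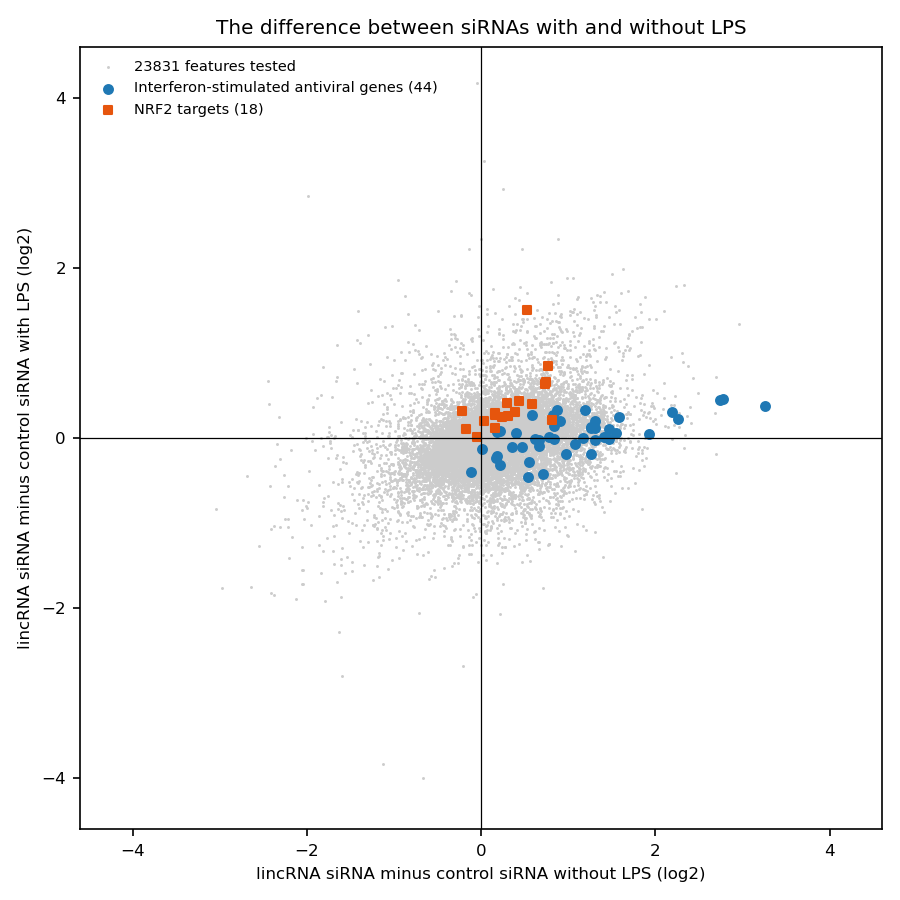
Each grey point is 1 of 23831 features, with the difference lincRNA siRNA minus control siRNA without LPS on the x axis and with LPS on the y axis (both log2). The 44 antiviral genes extend along the x axis at a median of 0.887 and stay near 0 on the y axis at 0.0297, while the 18 NRF2 targets have like medians on both, 0.302 and 0.305.

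The genes that LPS itself moves were also described as a set. Of 472 features at least 2-fold higher with LPS on the average of both siRNAs, 292 had a difference below 0 and 180 above it in the siRNA comparison, with a median of -0.0738. At an unadjusted p under 0.05, 13 were higher (2.75%) and 26 lower (5.51%), against 2.81% and 1.86% of all features. All lincRNA siRNA arrays lay below all controls for 61 (12.9%) and above for 29 (6.14%), against 3.89% and 7.37% of all features. The median was 0.0216 on array 1, which shared the controls' slide, -0.0444 on array 2 and -0.175 on array 3. Without control array 1 it was -0.156, with 349 features below 0. For the 35 features at least 2-fold lower with LPS the median difference was -0.193, or -0.103 without control array 1, and on these control array 1 lay 0.62 log2 units above the other control arrays.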

How the data were processed

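Each array held 1 colour of labelled RNA, and its scanner file was made with Agilent Feature Extraction 10.7.1.1, per the file headers, with probes placed on mm9. The deposited values used are processed spot intensities, which the authors' software had background-corrected. Replicate spots were averaged, control spots left out, and log2 intensity minus the array's 75th percentile was taken. The filter on dim probes asked for signal well above background in every replicate of some group, and left 33157 of 55681, and the brightest probe stood for each of 23831 features. The authors' own deposited log2 table of the same arrays served as an alternative, and its rank correlation with each array was at least 0.999999. No source used here gives its normalization.

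All 12 arrays were fitted in limma 3.58.1 (R 4.3.3) with a mean per group and moderated tests, and p-values were adjusted over all features (Benjamini-Hochberg, 0.05). The steps were tested on simulated data. The exact permutation test for 3 against 3 arrays cannot go below 0.1, so only limma was used. The number of arrays limits the precision.

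Named genes were the 12 highest and 12 lowest with an unadjusted p under 0.05, no overlap and signal well above background on all 6 arrays, since none passed the adjusted threshold. To these came the highest and lowest member of each list, a set of LPS-response genes, and the 3 highest and 3 lowest lincRNA regions. The comparison and the gene lists were chosen with earlier results of these data known. No replicate was treated as paired, and array slides were read from the file headers. Promoter windows came from RefSeq (GRCm38.p6) and were matched by symbol.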

Additional observations from a re-analysis of the deposited data

How the results depend on the processing

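The siRNA comparison with LPS was recomputed under 14 alternatives and with each of 12 arrays left out, and 0 features passed an adjusted p of 0.05 in limma in all but these. With slide as a fixed block 2 passed, Mrgprb3 at -3.47 and 1700048F04Rik at -2.56, and with a variance trend and robust prior 1 passed, Taldo1. Leaving out single arrays gave 717 to 1326 features at an unadjusted p under 0.05, and 862 without control siRNA with LPS array 1. Higher and lower calls at that level numbered 529 and 535 in the authors' deposited table, 561 and 590 with normexp and quantile normalization, and 402 and 239 (641 in all) with median scaling. Of 127 named genes 88 kept their sign in every setting and 112 with the slide as a block.

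Without LPS the count that passed was 1 with the slide block, 5 with normexp and quantile normalization, 2 with probes averaged, 6 with trend and robust prior and 5834 with array weights, and 0 to 2357 when single arrays were left out (127 without lincRNA siRNA array 1, 8 without its array 3, 1 without control array 1). The test of a difference between the states gave 0 to 316 on leaving out arrays. The interaction was not run on the compared arrays alone, since it needs all 12. The cause of these shifts was not tested. With the replicate number as a block, 0 features passed and 1294 had an unadjusted p under 0.05 (692 higher, 602 lower). Deviations of same-numbered LPS arrays from their group means had correlations of 0.124, 0.238 and -0.0662. Arrays 2 and 3 lay on slide 2 with control siRNA and on slide 3 with lincRNA siRNA. These values therefore cannot tell whether the number marks a pairing.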
